A study of Drosophila melanogaster with 2 samples.

Results

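The fd3F binding profile around 7 chordotonal genes, nan, iav, nompC, nompA, eys, DCX-EMAP and ktub, was described out of 13945 protein-coding genes on the chromosome arms that held peaks. The members were listed by name, as genes that build the stretch-sensing apparatus or carry its ion channels, and all 7 were found in the annotation with the same coordinates as in RefSeq. The samples were whole Drosophila melanogaster embryos aged 8 to 18 h of the fd3F-GFP strain, a transgenic line that stably carries fd3F with GFP at its C-terminus. There was 1 group, in 2 biological replicates numbered 1 and 3, with no other genotype, treatment or age. Chromatin was sonicated to 200 to 800 bp and, by the sample description, precipitated through GFP. The antibody field of the labels names fd3F instead, and the description is followed here. The labels do not say whether untagged fd3F was also present. Whole embryos were taken, so the profile averages over all tissues, and binding in the few chordotonal neurons was not measured on its own.

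Chordotonal organs are internal stretch receptors of insects. Their neurons end in a cilium that is wrapped by a scolopale cell and tied to the cuticle by cap cells. Deformation of the cilium opens TRP channels, and the forkhead factor fd3F is known from mutants to be needed in these neurons for the expression of nan and iav and of genes for ciliary motility. It is known to act there together with Rfx, a regulator of ciliary genes in many cell types.

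Peaks came as 4 lists on build dm6: 30000 peaks for each replicate, 30000 for the replicates pooled, and 3917 reproducible peaks, which were the 3917 highest of the pooled list. The signal of a peak is the authors' value on the scale of its own list, so ranks (1 = highest signal) are set side by side and signals are not. Summits were taken from the gene body and 10 kb on each side. Distances are in bp from the gene's most upstream annotated start site, negative upstream. A start-site peak had its summit within 1000 bp of any annotated start of the gene. The lists hold no read counts, so the sequencing depth is unknown. A site has at most 2 replicate ranks, which are given as they stand.

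The sequences on which the account turns are those at the reproducible start-site summit of nan and the highest summit near nompC, both channel genes, and the stretches just before their start sites. They read 5′ to 3′ on the strand of the gene. Capitals mark every match, on either strand, to the forkhead consensus RYAAAYA (R for A or G, Y for C or T), and TGTTTAC or its complement GTAAACA is the stricter forkhead core.
nan, 201 bp around the reproducible summit at -531, minus strand, chr3L:14190079-14190279: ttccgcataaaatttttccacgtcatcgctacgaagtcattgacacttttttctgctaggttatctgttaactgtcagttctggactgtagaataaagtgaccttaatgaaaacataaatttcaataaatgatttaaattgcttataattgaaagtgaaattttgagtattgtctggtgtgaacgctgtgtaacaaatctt
nan, 250 bp before the start site, minus strand, chr3L:14189649-14189898: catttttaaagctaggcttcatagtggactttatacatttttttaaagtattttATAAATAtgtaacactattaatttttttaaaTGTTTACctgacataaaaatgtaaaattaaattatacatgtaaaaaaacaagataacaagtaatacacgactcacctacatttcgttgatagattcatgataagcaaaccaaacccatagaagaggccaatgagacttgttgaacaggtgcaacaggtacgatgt
nompC, 201 bp around the reproducible summit at -3613, plus strand, chr2L:5342487-5342687: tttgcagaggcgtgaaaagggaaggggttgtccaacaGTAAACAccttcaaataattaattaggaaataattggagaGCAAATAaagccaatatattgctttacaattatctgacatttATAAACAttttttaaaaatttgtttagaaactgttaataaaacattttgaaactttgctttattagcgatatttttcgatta
nompC, 250 bp before the start site, plus strand, chr2L:5345950-5346199: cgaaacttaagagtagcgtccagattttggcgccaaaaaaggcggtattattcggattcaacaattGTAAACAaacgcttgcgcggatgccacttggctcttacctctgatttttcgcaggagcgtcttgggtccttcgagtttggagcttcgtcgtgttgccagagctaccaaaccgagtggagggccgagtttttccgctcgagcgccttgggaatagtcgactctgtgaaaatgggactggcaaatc
The nan window at -531 holds no forkhead match, and the stretch before the nan start holds both an ATAAATA and a core. Another nan summit, at -6288, had a better rank (2421 against 2861) and 2 forkhead matches in its window. The nompC summit window holds 3 matches, a core among them, and the stretch before its start holds a core alone. Of all protein-coding genes, 57.8% hold a forkhead match in the 250 bp before the start. The stricter core was counted only over a longer stretch, from 250 bp before to 150 bp after the start, where 11.7% hold one.

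nan was the only member with a start-site peak in the reproducible list. It encodes a TRPV channel subunit of the proximal cilium, and lies on chromosome 3L (FBgn0036414, 14186249 to 14189648, minus strand). Its start-site peak (14190091 to 14190247, summit at -531) had rank 2861 and a signal of 148. The replicates placed it alike, at rank 3400 and -513 in replicate 1 and at rank 2659 and -504 in replicate 3. The peak lies between divergent genes: nuf, a Rab11 effector used in cellularization and cytokinesis, starts at -1222 on the other strand, 691 bp from the summit. The peak sits nearer to nan, but it is within 1000 bp of both starts, and assignment to either cannot be told apart from the lists. Replicate 3 had a further summit in the gap at -712 (rank 4311) that overlapped the same replicate 1 peak.

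Peaks closer to the nan start were weaker and not shared. Replicate 1 had a summit in the 5′ untranslated region at +97 (rank 8102, q-value at most 0.05), and replicate 3 had no peak overlapping it. The nearest pooled summit to the start lay at +225 with rank 10945. That replicate 1 window takes in a forkhead core at +14 and a forkhead match at +115, and the 250 bp before the start add the matches at -196 and -165. Proneural E-boxes (CAGCTG or CAGGTG, or its complement) lay at -21 and +40, where 32.0% of all protein-coding genes hold one from 250 bp before to 150 bp after the start. The other reproducible summit in the window, at -6288 (rank 2421, replicate ranks 2794 and 2373), was inside nuf and held 2 forkhead matches. In all, 2, 8, 9 and 8 summits lay around nan in the reproducible, replicate 1, replicate 3 and pooled lists.

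**Figure D1:**
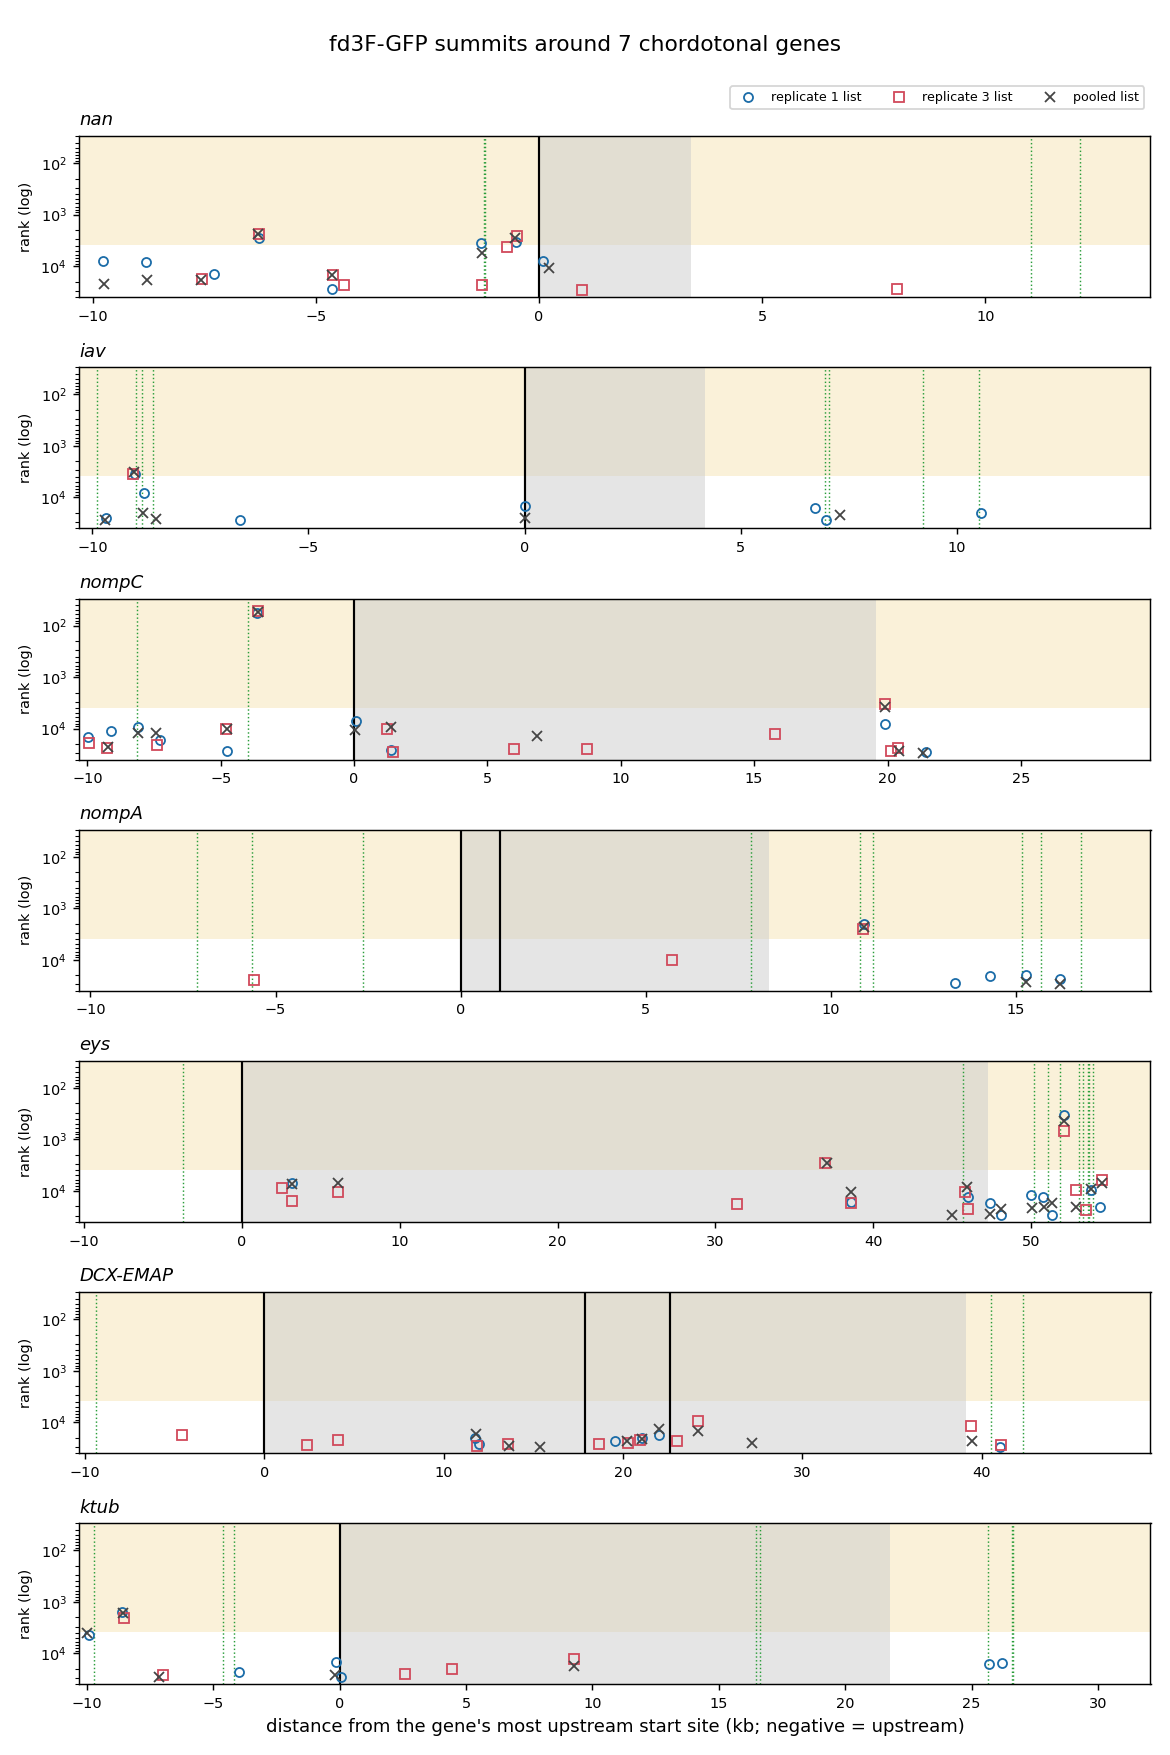
Summits around each of the 7 genes. The x axis is the distance from the most upstream start site in kb (gene body grey, starts of the gene as black lines, starts of other protein-coding genes as green dotted lines), and the y axis is the rank on a log scale with the highest signal at the top. The ochre band covers the ranks of the reproducible list, 1 to 3917. The nompC summit at -3613 stands highest in all lists, and DCX-EMAP has no point inside the band.

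**Figure D2:**
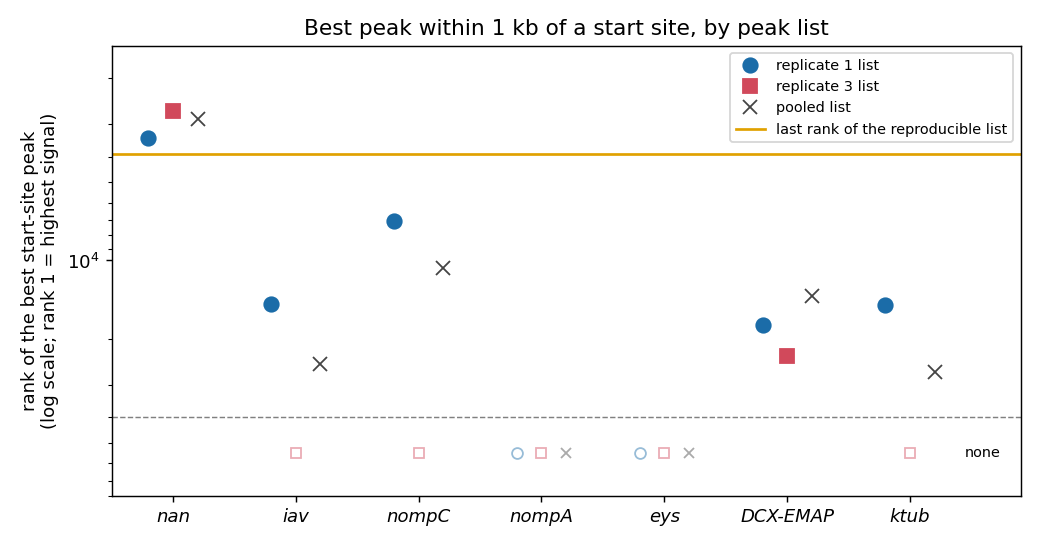
Rank of the best peak within 1000 bp of a start site for each gene in the replicate 1, replicate 3 and pooled lists (y axis, log scale, highest signal at the top). Pale symbols under the dashed line mark lists with no such peak. The 3 values of nan lie above the line of rank 3917, all other values lie below it, and nompA and eys have none.

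iav, whose product forms the chordotonal channel together with that of nan, had a start-site peak in replicate 1 alone. The gene lies on chromosome X (FBgn0086693, 6813978 to 6818156, plus strand). The replicate 1 summit fell on the start base itself, at rank 14704 with a signal of 29.1, where the lowest signal in that list was 18.6. Replicate 3 had no peak there, and the pooled summit at +11 had rank 24950. Neither had a q-value of at most 0.05. The start carries an X-box of Rfx, a match to the palindrome-like Rfx consensus, at +5 to +18, and forkhead matches at +57 and at -191. The 147 bp before the start, which end short of the match at -191, hold none. The X-box is shown with that stretch because both lie under the weak peak, and the capitals are the X-box.
iav, 147 bp before the start site, plus strand, chrX:6813831-6813977: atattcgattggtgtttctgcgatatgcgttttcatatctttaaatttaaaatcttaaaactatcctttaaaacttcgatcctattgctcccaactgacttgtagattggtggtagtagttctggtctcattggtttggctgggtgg
iav, X-box at +5 to +18, plus strand, chrX:6813983-6813996: GTTACCAGGACAAC
Of all protein-coding genes, 37.5% hold a forkhead match in the 147 bp before the start.

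The replicates differed more around iav than around nan. Replicate 1 had 8 summits in the window and replicate 3 had 1. The site found in all lists, at -9043 (rank 3217, replicate ranks 3451 and 3464), lay 50 bp upstream of a start of pod1, a gene for an actin- and microtubule-binding coronin. In the pooled list there were 6 summits, of which 1 had a q-value of at most 0.05.

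nompC had the highest peak of the set, but away from its own start. The gene encodes a TRPN channel of the distal cilium that is gated by force, and lies on chromosome 2L (FBgn0016920, 5346200 to 5365760, plus strand). The summit at -3613 had rank 54 and a signal of 1247 in the pooled list, rank 56 in replicate 1 at -3647 and rank 52 in replicate 3 at -3613. In the pooled list 1.86% of all protein-coding genes had a summit of that rank or better in their window. It lay 353 bp upstream of Acsf2, a gene named for an acyl-CoA synthetase that runs the other way and starts at -3966, so the peak stands in the sequence between the divergent genes. Its window had a GC content of 27.4%, against a median of 33.3% over all reproducible summits.

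At the nompC start itself the replicates were unlike. Replicate 1 had a peak at +76 with rank 7082 and a q-value of at most 0.05, and the pooled list had one at +45 with rank 10719. Replicate 3 had its nearest summit in an intron at +1240, with rank 10093, and it overlapped a replicate 1 peak at +1391 (rank 25733). The pooled summit in that intron, at +1375, ranked better than the one at +45. It had rank 9322, a q-value of at most 0.05 and a forkhead core in its window. A second reproducible peak lay 337 bp past the 3′ end of the gene (rank 3877, replicate ranks 8304 and 3408). The nearest start of a protein-coding gene to it was still that of nompC, 19897 bp away. This peak is near the end of the reproducible list, where the last rank is 3917.

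The extracellular matrix gene eys had no start-site peak in any list. It encodes a secreted proteoglycan that keeps the fluid space around chordotonal cilia open, as it does between the light-sensing membranes of the eye, and lies on chromosome 2L (FBgn0031414, 2311680 to 2358944, plus strand) over the antisense gene CG9967. Its highest summit was 4830 bp past the gene's end, at rank 439 (replicate ranks 328 and 684), and lay 270 bp upstream of a start of Rab5, the GTPase of early endosomes. A reproducible peak stood at +37052, in an intron of both eys and CG9967, at rank 2845 with a signal of 149. Replicate 3 had it at rank 2910, whereas replicate 1 had no overlapping peak and its nearest summit was 1517 bp away. Only 35 of the 3917 reproducible peaks (0.894%) had no replicate 1 peak. Closer to the start, pooled summits in the first 10 kb were at +3186 (pooled rank 7230, in both replicates) and +6079 (pooled rank 6962, in replicate 3 alone). The intronic site is shown because it is the reproducible peak inside a member gene, with 1 forkhead match in capitals.
eys, 201 bp around the reproducible summit at +37052, plus strand, chr2L:2348632-2348832: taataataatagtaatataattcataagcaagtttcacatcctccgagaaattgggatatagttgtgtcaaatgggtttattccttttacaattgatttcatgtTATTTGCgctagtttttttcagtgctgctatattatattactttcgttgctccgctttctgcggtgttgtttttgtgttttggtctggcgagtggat

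DCX-EMAP was the member with no reproducible peak. It encodes a microtubule-binding protein with doublecortin domains that is needed in fly mechanosensory cilia, and lies on chromosome 3L (FBgn0259099, 14903805 to 14942907, plus strand) with start sites at 0, +17887 and +22627. Replicate 1 had 6 summits in the window, replicate 3 had 12 and the pooled list had 9, and none had a q-value of at most 0.05. The best pooled summit had rank 13642, and 84.1% of all protein-coding genes had a summit of that rank or better in their window. Start-site peaks were in different places in the replicates: replicate 1 had one 609 bp upstream of the third start (rank 17698), and replicate 3 had one 390 bp downstream of it (rank 23266) and one 758 bp downstream of the second (rank 26779). The best replicate 3 summit, in an intron at +24175 (rank 9476), had no overlapping replicate 1 peak. The pooled summit at that site (rank 14521) is shown, since it holds 4 overlapping or close forkhead matches, a core among them. The better-ranked pooled summit at +22018 (rank 13642) held no forkhead match within 100 bp. Of all pooled summits, 50.1% held a forkhead match.
DCX-EMAP, 201 bp around the pooled summit at +24185, plus strand, chr3L:14927890-14928090: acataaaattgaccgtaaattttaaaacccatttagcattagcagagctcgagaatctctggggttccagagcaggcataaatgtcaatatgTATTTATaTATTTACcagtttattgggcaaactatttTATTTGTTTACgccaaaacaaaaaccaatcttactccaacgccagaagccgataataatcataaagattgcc
In the pooled list 8 of the 9 summits had DCX-EMAP as the protein-coding gene with the nearest start, against 26.4% of all pairs of a gene and a summit in its window. The gene has 3 starts, and the closest starts of other genes on each side lie at -9389 and +40526.

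As a set, the members had a lower share of start-site peaks than all genes in the reproducible and replicate 3 lists and a higher one in the replicate 1 and pooled lists. In the reproducible list 1 of 7 had one (14.3%, exact 95% interval 0.361 to 57.9%), against 20.8% of all protein-coding genes. The counts were 5 of 7 in replicate 1 (interval 29.0 to 96.3%) against 60.1% of all genes, and 2 of 7 in replicate 3 (3.67 to 71.0%) against 56.2%. In the pooled list it was 5 of 7 (29.0 to 96.3%) against 58.4%. At a q-value of at most 0.05 there were 2 (nan and nompC) in replicate 1, 1 in replicate 3 and 1 in the pooled list, where all genes had 39.7%, 32.9% and 37.3%. Start-site peaks of the replicates overlapped at nan alone, 1 of 7, against 41.1% of all genes. With 7 genes the intervals are wide, and no test was made since the genes were chosen with results of these data known.

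In the gene bodies and 10 kb around them the members' median density of summits was below that of all genes in each of the 4 lists. A reproducible summit lay there for 6 of 7 members, against 59.9% of all genes, and every member had a summit in each relaxed list, against 89.2% of all genes in replicate 1, 96.5% in replicate 3 and 91.3% in the pooled list. These shares depend on window length, and densities can vary with it too. It ran from 23.4 kb (nan) to 67.3 kb (eys) and was not matched to that of all genes. Over the 7 windows together there were 9 reproducible, 55 replicate 1, 55 replicate 3 and 57 pooled summits. That made 0.317, 1.94, 1.94 and 2.01 per 10 kb, against 0.293, 2.24, 2.24 and 2.24 over the arms. Per gene, the members' median density was 0.353, 1.76, 1.78 and 2.23 per 10 kb in the reproducible, replicate 1, replicate 3 and pooled lists, and that of all genes 0.424, 2.94, 2.41 and 2.75. In the pooled list nan was highest at 3.42 and nompA lowest at 1.06. Above the all-gene median were nan in every list, nompC in all but replicate 1, and iav in replicate 1 alone. Of the 57 pooled summits 17 (29.8%) had a q-value of at most 0.05, against 33.9% of the whole list.

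**Figure D3:**
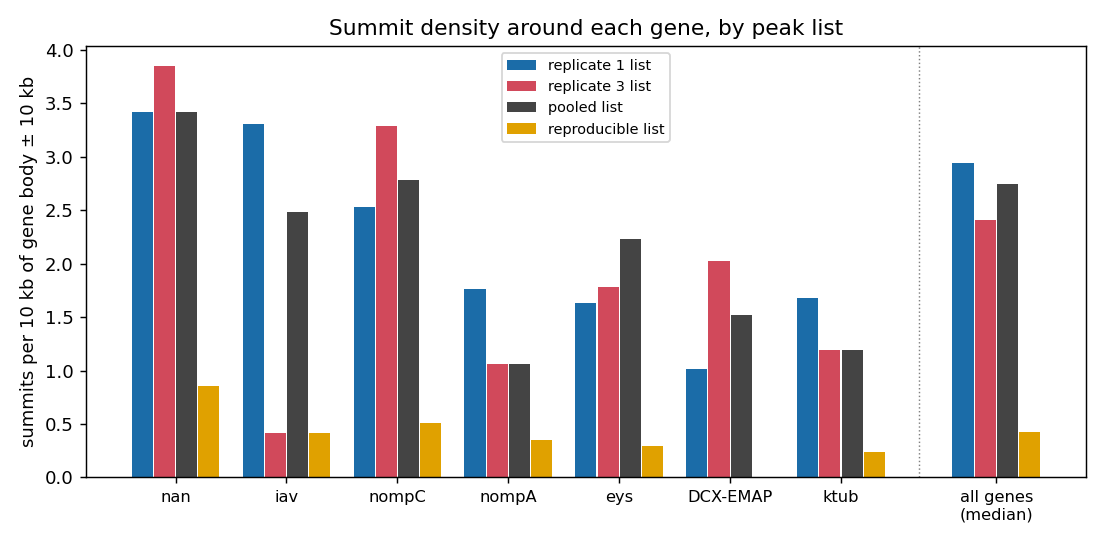
Summits per 10 kb of gene body and 10 kb on each side, for each of the 7 genes by peak list, with the median over all 13945 protein-coding genes at the right. Bars start at 0 and have no error, as each is a count from 1 list. The nan bars stand above the all-gene median in every list, and iav is high in replicate 1 and low in replicate 3.

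Most reproducible summits around these genes were nearer to the start of another protein-coding gene, as in the windows of all genes. The nearest start belonged to the member in 2 of 9 (22.2%, exact 95% interval 2.81 to 60.0%), the nan peak at -531 and the nompC peak past its 3′ end, against 22.8% of all pairs of a gene and a summit in its window. Of the 7 others, 4 lay within 1000 bp of another gene's start: those at Acsf2, pod1, Rab5 and CG7745. In the pooled list the member's start was nearest for 20 of 57 summits (35.1%), against 26.4% over all genes. Pooled summits in the windows were in introns of any gene in 54.4% and in 5′ untranslated regions of any gene in 17.5%. These shares were 50.1% and 7.11% of the whole list, which was not limited to windows around genes, so the comparison is not like for like. The 5′ untranslated regions belonged to the members nan, iav and nompC and to neighbouring genes, nuf, pod1 and Rab5 among them.

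The replicates shared most of the strong sites around these genes and fewer of the weak ones. Of 55 replicate 1 summits 27 (49.1%, exact 95% interval 35.4 to 62.9%) overlapped a replicate 3 peak, against 52.2% of the whole list, and 29 of 55 replicate 3 summits (52.7%) overlapped a replicate 1 peak, against 51.8%. All 8 member summits in the best 3917 of replicate 1 had a replicate 3 peak, against 97.1% of such peaks in the list, and 8 of 9 in the best 3917 of replicate 3 had a replicate 1 peak, against 97.7%. Between ranks 3918 and 10000 it was 5 of 10 in replicate 1, against 69.2%, and 2 of 6 in replicate 3, against 75.5%. Between ranks 20001 and 30000 it was 8 of 21 in replicate 1, against 32.8%, and 11 of 26 in replicate 3, against 29.7%. By gene, 5 of 8 replicate 1 summits were matched at nan and 7 of 10 at nompC, but 2 of 8 at iav, 1 of 5 at nompA and 2 of 7 at ktub. Of the 57 pooled summits 24 overlapped both replicate lists (42.1%, against 52.4% of all pooled peaks), 19 replicate 1 alone, 10 replicate 3 alone and 4 neither.

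**Figure D4:**
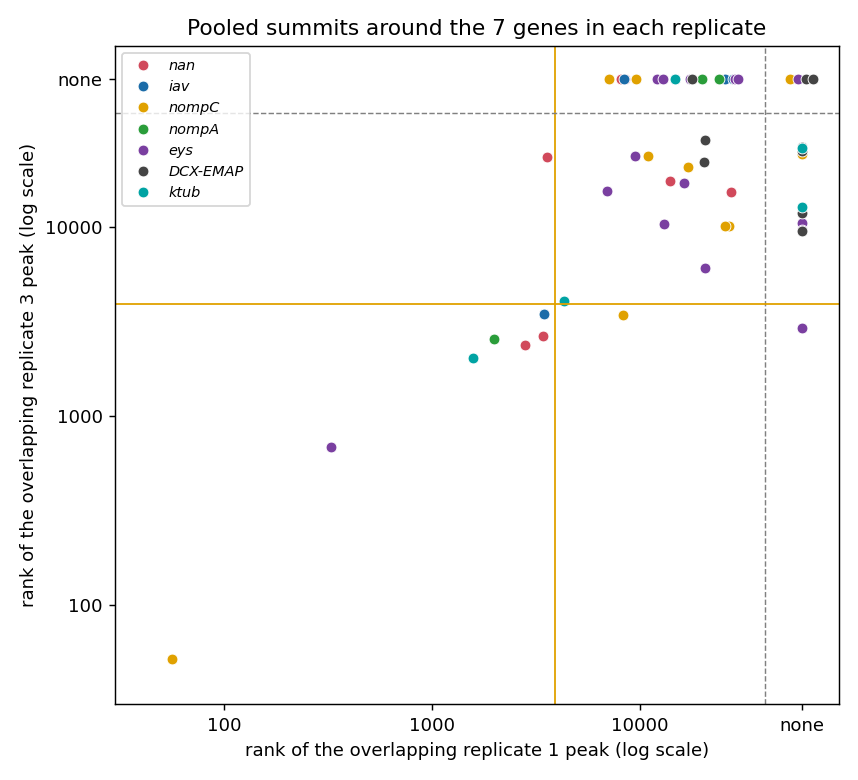
Ranks of the best replicate 1 peak (x axis) and the best replicate 3 peak (y axis) that overlap each of the 57 pooled summits, both on log scales, coloured by gene. The same replicate peak can stand for more than 1 pooled summit, as for those of iav at -9043 and -8819. Points beyond the dashed lines have no overlapping peak in that replicate, and the ochre lines mark rank 3917. The points inside rank 3917 on both axes lie near the diagonal, with nompC at ranks 56 and 52, and the points above it scatter.

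Forkhead matches were at most of the reproducible summits around these genes, as in the whole list. Within 100 bp of the summit, RYAAAYA was present at 6 of 9 reproducible summits (66.7%, exact 95% interval 29.9 to 92.5%), against 60.0% of all, and at 30 of 57 pooled summits (52.6%), against 50.1%. The core was at 1 of 9 reproducible summits, that of nompC at -3613, against 7.43%. It was at 7 of 57 pooled ones (12.3%, exact 95% interval 5.08 to 23.7%), against 5.93%. Of those 7, the member's start was the nearest in 2. GAGAG, a word of GAGA factor, was at 4 of 9 and 17 of 57, against 18.4% and 20.8%. X-boxes were at none of 9 and at 2 of 57 (3.51%), against 1.99% and 2.40%, and the motif TATCGATA of DREF was at none of 57, against 1.51%. From 250 bp before to 150 bp after the most upstream start, 3 members held a forkhead core (nan, nompC and eys) and 2 an X-box (iav and ktub), against 11.7% and 5.65% of all protein-coding genes. In the same stretch 6 of 7 held a forkhead match, 3 a GAGAG, 2 an E-box and none a TATCGATA, against 71.2%, 37.1%, 32.0% and 9.67%. A match describes the letters in the window, and motifs can overlap.

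nompA and ktub complete the set. nompA encodes a zona pellucida domain protein of the dendritic cap that ties the cilium to the cuticle, made by a support cell and not by the neuron, and lies on chromosome 2R (FBgn0016047, 11310335 to 11318676, minus strand) around the small gene CG43114. It had no start-site peak in any list. Its reproducible peak, 2559 bp past the gene's end (rank 2317, replicate ranks 1995 and 2559), lay 103 bp upstream of CG7745, with no forkhead match within 100 bp of its summit in any list. Inside the gene the lists held 1 summit, in coding sequence at +5705 in replicate 3 (rank 9918).

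ktub encodes a tubby-like protein that brings the channels into the cilium, and lies on chromosome 2R (FBgn0015721, 21101928 to 21123704, plus strand) around CG9394. Its reproducible peak at -8563 (rank 1630, replicate ranks 1576 and 2013) was in an intron of CG34396, 1143 bp from its start, with an E-box in its window. No forkhead match lay within 100 bp of the pooled summit, but the window of the replicate 3 summit at -8536 held a forkhead core. The ktub start had peaks in replicate 1 at -150 (rank 14758) and +51 (rank 28157), none in replicate 3, and a pooled peak at -188 (rank 26792). The -150 window held 13 GAGAG matches, some of which overlap, and no X-box. The +51 window held the X-box at +6 to +19.

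Genes of related function were counted in the same way, from lists drawn up by known role. Of 15 other TRP and mechanosensory channel genes 4 had a reproducible start-site peak, against 20.8% of all protein-coding genes: the stretch-gated channel gene Piezo (rank 310), the TRP genes Trpm (554), pyx (737) and wtrw (1128). In the pooled list 8 of the 15 had one, against 58.4%. Of 13 zona pellucida domain and apical matrix genes that were matched, 1 did, qsm (rank 3724), and 7 in the pooled list. Of 5 apical membrane genes related to eys, 1 did, the polarity gene crb (rank 814), and 3 in the pooled list. Of 10 other chordotonal and ciliary structure genes 2 did, Oseg1 for intraflagellar transport (rank 3178) and tilB for dynein arm assembly (rank 3615), and 6 in the pooled list. All 4 channel genes named here had a better rank at their start than nan, and the others of the 15 had no reproducible start-site peak.

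By the ranks of the best start-site peak in the 3 relaxed lists, 6204 genes could be compared. nuf had the same values as nan because it shares the peak, and next was CG15120, with ranks 3368, 2716 and 2896 in replicate 1, replicate 3 and the pooled list and a summed difference in log2 rank of 0.0618. For DCX-EMAP the nearest were CG1603 (0.0742) and Axn (0.101), a Wnt pathway scaffold gene.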

How the data were processed

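ChIP-seq peak lists in narrowPeak format on build dm6 were used as deposited, per the file headers and labels. The deposited signal of each peak and its −log10 q-value, as the authors gave them, ordered and filtered peaks within a list. How reads were aligned and which caller and reproducibility threshold were applied is not given in the sources used here, and no control data were read. Summits were taken as interval start plus offset. Gene models were Ensembl 115 (FlyBase 6.54), and sequences came from the RefSeq Release 6 genome. No peak ran past a chromosome end (0). Peaks matched where intervals overlapped by at least 1 bp. The nearest start was sought among protein-coding genes only. Motifs were scored on both strands within 100 bp of a summit by the words given with the results, and the X-box of Rfx by its consensus of 2 sites with a spacer. The scan of start regions was added after the summits had been seen.

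With 1 group there was no contrast and no test: shares have exact (Clopper-Pearson) 95% intervals that cover counting error only. Members and lists were chosen with earlier results of these data known. Named were the 7 members, genes that overlap them or own the start nearest to a reproducible summit in their windows, list genes with a reproducible start-site peak, and the 2 genes of nearest ranks. Scripts (Python 3.11.15, numpy 2.4.6, scipy 1.17.1, matplotlib 3.10.9) were tested on simulated peaks.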

Additional observations from a re-analysis of the deposited data

How the results depend on the processing

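The total of 57 pooled summits was 20 in gene bodies alone, 29 with 2 kb on each side, 98 with 20 kb, 17 at a q-value of at most 0.05, 9 in the reproducible list and 32 without summits at other genes' starts. It was 38 with 5 kb, 57 with summits merged within 100 bp, and 55 with either replicate left out. Members with a reproducible start-site peak numbered 0 within 500 bp, as the nan summit lies at -531, and 1 within 2000 bp, with the most upstream start or in pooled peaks at a q-value of at most 0.05. They numbered 5 in the pooled list, and 2 to 5 with a replicate left out, where the whole list of the other replicate was used. The nan peak's rank of 2861 was 10945 within 500 bp, 2659 to 3400 with a replicate left out, and 1 by q-value, where 2952 pooled peaks tie at the top. The replicate match of 49.1% was 20% with replicate 3 peaks at a q-value of at most 0.05 and 16.4% with its best 3917, by construction fewer peaks, and 38.2% and 43.6% under stricter overlap. Forkhead matches at 52.6% of pooled summits were 36.8% within 50 bp and 82.5% within 250 bp, against 30.5% and 79.5% of all pooled summits. No paired analysis was possible because there is 1 group. Unknown depth means that a missing replicate peak does not show an absent site.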

Other observations

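The X-boxes of iav and ktub lie at like places relative to their start sites, at +5 to +18 and +6 to +19. In replicate 1 the summit whose window holds the X-box has rank 14704 at iav (at 0) and rank 28157 at ktub (at +51), and a better ktub summit, at -150 with rank 14758, has no X-box in its window. Replicate 3 lists no start-site peak at either gene. The pooled iav summit at +11 (rank 24950) has the X-box in its window, and the pooled ktub peak (rank 26792) ends before the start and does not reach it. An X-box lies from 250 bp before to 150 bp after the start of 788 of 13945 protein-coding genes. The likeness of position was noticed after the values were seen and no test was made of it.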
